A study of Triticum aestivum with 6 samples.

Results

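Ammonium transporters (AMTs) of the types AMT1;1 and AMT3;2 were followed in root transcripts of bread wheat, Triticum aestivum, of the wild type JW1. Members were the genes whose best UniProt match, as deposited, was named "ammonium transporter 1 member 1" or "ammonium transporter 3 member 2". This gave 7 genes of the 83219 in the table, 4 similar to rice AMT1;1 and 3 similar to rice AMT3;2, among 20 genes with an ammonium transporter name. The types had been chosen because they differed in opposite directions between these libraries with and without nitrate. Their differences between the groups are therefore described here without a test.

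There were 6 libraries, 3 of a group without nitrate (0N) and 3 of a group with 2 mM nitrate (2N). All seedlings, their endosperm removed after 3 days of germination, had spent 3 days at 2 mM nitrate and 2 days free of nitrogen. For the last 3 hours the 0N seedlings received 2 mM KCl and the 2N seedlings the potassium nitrate salt at the same strength. Chloride therefore changed together with nitrate, and the effects of the ions cannot be told apart. The listed components of the medium include no ammonium salt.

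AMT proteins are membrane channels that let ammonium into plant cells. AMT1 proteins are the high-affinity importers of the root surface, and in rice AMT1;1 is expressed in root and shoot. AMT2 and AMT3 proteins form a separate branch, closer to the MEP ammonium permeases of fungi and bacteria. Ammonium also arises inside root cells when nitrate is reduced, and glutamine synthetase then binds it into amino acids.

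The libraries held 16208512 to 17645686 estimated counts each. Spearman correlations of log2 CPM (counts scaled to a common library size by TMM) were 0.980 to 0.986 within groups and 0.951 to 0.960 between them. All samples carry the tissue label root, but a cell line label reads leaf tissue. Transcripts of 114 leaf photosynthesis genes summed to 244 to 516 CPM in 0N libraries and 135 to 253 in 2N libraries, 17 of them with 0 counts in every library, and 23 of the 69 tested fell (edgeR's quasi-likelihood test, Benjamini-Hochberg adjusted p under 0.05), with a median log2 fold change of -0.96. Casparian strip membrane proteins, markers of the root endodermis, summed to 107 to 137 CPM in 0N libraries and 156 to 202 in 2N libraries, and 4 of the 6 tested rose. Over all 54313 tested genes 7.93% fell and 7.57% rose by the same test. The most abundant of each list were TraesCS2D02G248400, an oxygen-evolving enhancer gene at 19.9 ± 4.30 CPM without and 11.1 ± 2.99 CPM with nitrate (SD, n = 3), and TraesCS2A02G383000, at 29.9 ± 3.46 and 43.2 ± 6.47 CPM. The adjusted p of the first, 0.04, ran from 0.0005 to 0.14 over the alternatives, and its call ended with no filter (0.104) or when 0N replicate 1, 0N replicate 3 or 2N replicate 3 was left out (0.13, 0.0728 and 0.14). The part of these shifts in the AMT results was not tested.

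AMT1;1-like transcripts were higher in every 2N library than in any 0N library for the copies on 2A, 2B and 2D. Of all 54313 tested genes, 16.2% had 2N libraries all above the 0N libraries in CPM, and 7.57% rose at an adjusted p under 0.05 in edgeR. The members were picked by this same contrast, and nothing is read from their count. TraesCS2A02G365000, whose identifier places it on chromosome 2A, stood at 26.8, 22.7 and 22.3 TPM (a level scaled for transcript length and library size) in 0N replicates 1 to 3 and at 41.3, 41.9 and 43.8 TPM in 2N replicates 1 to 3. The 2N libraries lay close together and far above the highest 0N library. In CPM the means were 29.0 ± 2.49 and 55.4 ± 2.06 (SD, n = 3), a log2 fold change of 0.93 ± 0.10 (SE) for 2N against 0N, or 1.91-fold.

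On 2B, TraesCS2B02G383600 stood at 40.0, 33.2 and 32.2 TPM in 0N and at 59.1, 58.2 and 55.5 TPM in 2N. The groups were again apart, and the first 0N library was the highest of its group, as on 2A and 2D. The log2 fold change was 0.82 ± 0.10 (SE), from 70.1 ± 6.88 to 124 ± 3.57 CPM. On 2D, TraesCS2D02G362900 stood at 54.6, 47.5 and 44.6 TPM in 0N and at 61.2, 65.5 and 57.7 TPM in 2N. Its groups came closest to each other, and its log2 fold change of 0.44 ± 0.10 (SE), from 59.4 ± 5.36 to 80.3 ± 4.44 CPM, was the smallest of the 3 copies.

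The fourth match, TraesCS2B02G383500, carries the identifier number next to that of the expressed 2B copy. It had 3, 2 and 0 counts in 0N and 3, 6 and 5 counts in 2N, or at most 0.23 TPM in any library. A count of 0 allows up to 3 counts, which is 0.170 to 0.185 CPM over these libraries and covers counting error only. The gene did not pass the filter on low counts, and no fold change is given. If the 2B genes are near-identical in sequence, their reads cannot be divided with certainty.

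**Figure D1:**
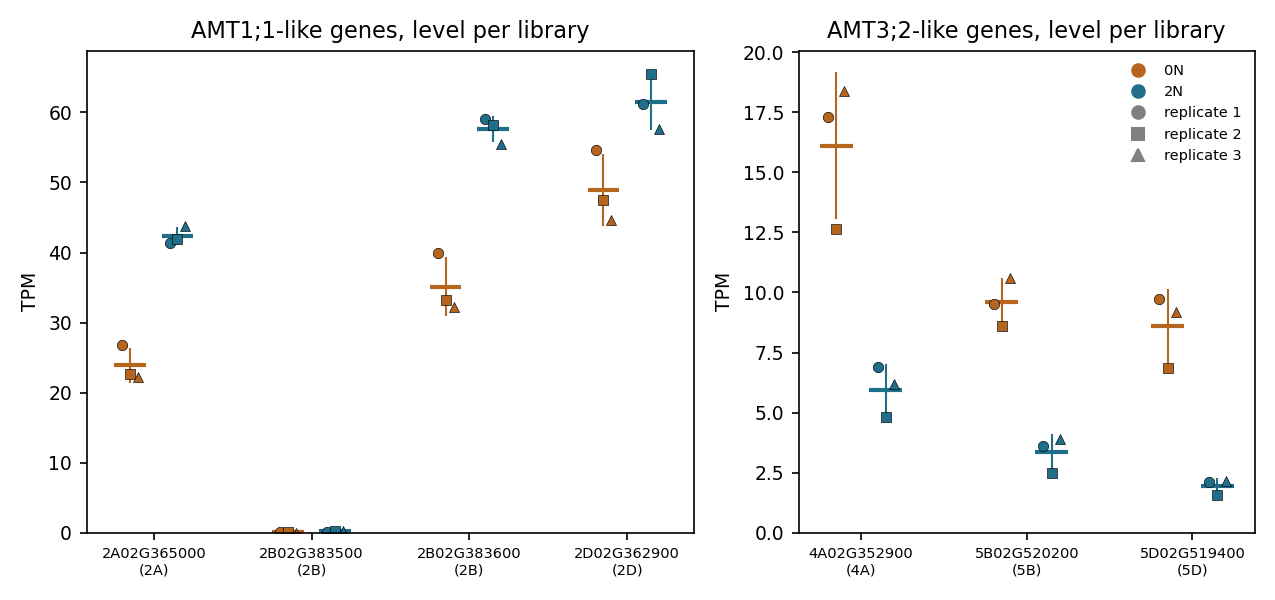
Level in TPM (y axis) of the 4 AMT1;1-like genes (left) and the 3 AMT3;2-like genes (right) in each library, with gene identifiers shown without their TraesCS prefix and the chromosome in brackets. Points are libraries, horizontal bars group means and vertical lines the SD (n = 3). The 2A, expressed 2B and 2D copies of AMT1;1 are higher in all 2N libraries and the 3 copies on the right lower in all of them.

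AMT3;2-like transcripts showed the opposite order, with every 2N library below every 0N library for all 3 genes. Of all tested genes, 16.2% had their 2N libraries all below, and 7.93% fell at an adjusted p under 0.05 in edgeR. The balance of directions over all tested genes depended on the scaling: 4109 rose and 4306 fell with TMM, 2920 rose and 6208 fell with library totals, and 2445 rose and 5441 fell by limma on log2(TPM + 0.1). TraesCS4A02G352900 stood at 17.3, 12.6 and 18.4 TPM in 0N and at 6.90, 4.80 and 6.17 TPM in 2N. Its log2 fold change was -1.32 ± 0.15 (SE), from 23.5 ± 3.93 to 9.41 ± 1.75 CPM (SD, n = 3), so the level in 0N was 2.50 times that in 2N. TraesCS5B02G520200 stood at 9.53, 8.60 and 10.6 TPM in 0N and at 3.63, 2.50 and 3.91 TPM in 2N, a log2 fold change of -1.41 ± 0.15 (SE). In these 3 genes the second replicate was the lowest of its group, in 0N as in 2N.

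TraesCS5D02G519400 had the largest difference of the members. It stood at 9.74, 6.87 and 9.20 TPM in 0N and at 2.12, 1.56 and 2.14 TPM in 2N. The log2 fold change was -2.04 ± 0.17 (SE), from 12.1 ± 1.81 to 2.95 ± 0.54 CPM, so the level in 0N was 4.12 times that in 2N. These genes carry the chromosome codes 4A, 5B and 5D. Wheat chromosome 4A is known to hold a segment that came from the long arm of 5A, but whether these genes are homoeologues was not tested here.

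In bulk roots, fewer cells of a type and less RNA per cell cannot be told apart. Counts behind the 6 tested members were 457 to 2131 per library for AMT1;1 and 40.4 to 456 for AMT3;2, so the values of the latter in 2N are the least precise.

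Set against each other, the types moved apart. Summed over its 4 genes, AMT1;1 stood at 121, 103 and 99.1 TPM in 0N and at 162, 166 and 157 TPM in 2N, with group means of 108 ± 11.9 and 162 ± 4.30 TPM (SD, n = 3). AMT3;2 summed to 36.6, 28.1 and 38.2 TPM in 0N and to 12.7, 8.86 and 12.2 TPM in 2N, with means of 34.3 ± 5.43 and 11.2 ± 2.08 TPM. AMT1;1 was thus the more abundant type in all 6 libraries. The ratio of the former to the latter was 3.32, 3.68 and 2.59 in 0N and 12.8, 18.7 and 12.9 in 2N. The ratio was highest in 2N replicate 2, the library with the lowest sum of the second type and the highest of the first. Sums of CPM do not depend on how reads were divided among the copies of a type. They were 159 ± 14.7 and 260 ± 4.94 CPM for the first type and 49.9 ± 6.65 and 17.7 ± 3.40 CPM for the second (0N and 2N, SD, n = 3).

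AMT1;1 supplied 50.8% ± 0.89 of the summed TPM of all 20 ammonium transporter genes in 0N and 58.8% ± 4.41 in 2N (SD, n = 3). The share of AMT3;2 was 16.2% ± 3.13 in 0N and 4.06% ± 0.56 in 2N. The family as a whole summed to 213 ± 21.2 TPM in 0N and 275 ± 15.2 TPM in 2N, without overlap of the groups.

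**Figure D2:**
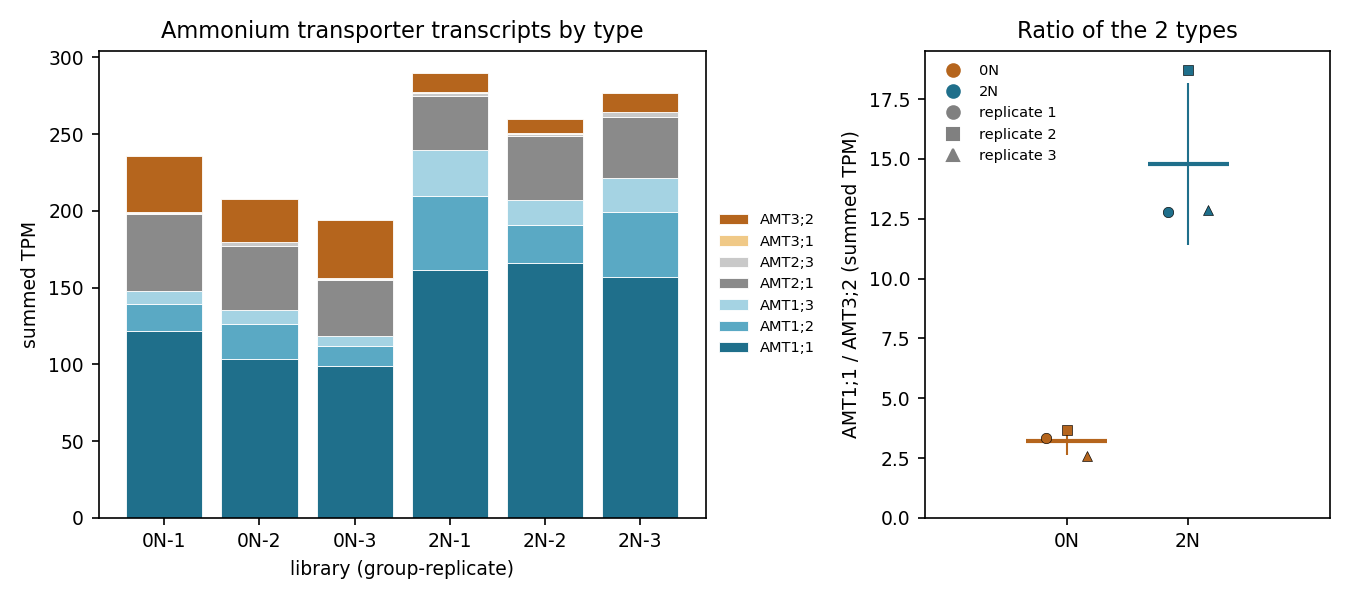
Left, summed TPM of ammonium transporter genes in each library, stacked by type (AMT3;3, at 0, is not drawn). Right, the ratio of summed TPM of the types, with points for libraries, bars for means and lines for the SD (n = 3). The dark blue block at the bottom is the largest in all 6 libraries, and the ratio is 2.59 to 3.68 in 0N and 12.8 to 18.7 in 2N.

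The order of the copies within a type was not used to choose the genes and was tested over the 6 libraries. Each of the 9 pairs of copies was compared by a two-sided exact sign-flip permutation test of the within-library difference in log2(TPM + 0.1), adjusted over the pairs. The smallest p the test allows is 0.03125, which becomes 0.0352 after adjustment. Within AMT1;1, the 2D copy exceeded the 2A copy by 0.78 ± 0.28 (SD, n = 6) on that log2 scale and the 2B copy by 0.28 ± 0.22, each in 6 of 6 libraries (exact adjusted p = 0.0352). The 2B copy TraesCS2B02G383600 exceeded the 2A copy by 0.50 ± 0.08 (2A minus 2B was -0.50), also in 6 of 6. The near-silent 2B gene was lower than the other 3 in all libraries. Its low counts fixed that outcome in advance, and its pairs are among the 9 over which p was adjusted.

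The place of the 2B copy rests on the correction for length. Its counts per TPM were 1.64 times those of the 2D copy, and in CPM the 2B copy was the higher of the pair in 6 of 6 libraries, by 0.43 on the log2 scale. Counts per TPM of the 2A and 2D copies were equal to within rounding (ratio 1.00).

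Within AMT3;2, the 4A copy exceeded the 5B copy by 0.78 ± 0.15 and the 5D copy by 1.23 ± 0.38 on the log2 scale (SD, n = 6), each in 6 of 6 libraries (exact adjusted p = 0.0352). The 4A minus 5D mean pools groups that did not overlap, at 0.89 ± 0.09 in 0N and 1.57 ± 0.09 in 2N (SD, n = 3). The 5B copy exceeded the 5D copy by 0.45 ± 0.34 in 5 of 6 libraries and did not pass (exact adjusted p = 0.0625). The 5B minus 5D mean also pools groups that did not overlap, at 0.16 ± 0.18 in 0N and 0.75 ± 0.10 in 2N (SD, n = 3). In CPM, 5B was the higher in 6 of 6 libraries and the pair passed (exact adjusted p = 0.0312).

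The balance of copies differed between the groups, a consequence of their unequal fold changes that is given as a description. The 2D copy held 45.3% ± 0.55 of AMT1;1 TPM in 0N and 38.0% ± 1.42 in 2N (SD, n = 3), while the 2A copy held 22.1% ± 0.28 and 26.2% ± 1.44. The gap of the 2A copy below the 2D copy was 1.03 ± 0.03 log2 units in 0N (2A minus 2D, -1.03) and 0.54 ± 0.13 in 2N (-0.54). For the expressed 2B copy, 2B minus 2D was -0.48 ± 0.03 in 0N and -0.09 ± 0.07 in 2N, also without overlap. In AMT3;2, the 5D copy held 25.1% ± 1.38 of the TPM in 0N and 17.3% ± 0.46 in 2N, and the 4A copy 46.8% ± 1.67 and 53.1% ± 2.24. The groups did not overlap in any of these 4 shares. The share of the 5B copy, 28.2% ± 2.30 in 0N and 29.6% ± 2.06 in 2N, overlapped.

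**Figure D3:**
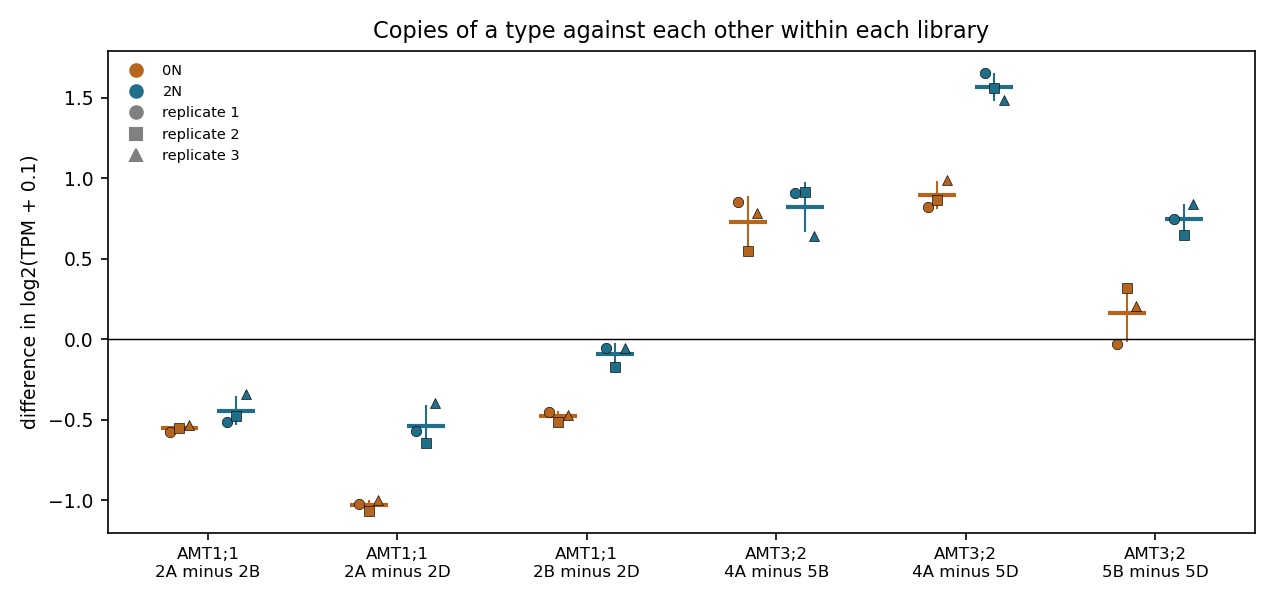
Within-library difference in log2(TPM + 0.1) (y axis) for each pair of copies of a type, without the near-silent 2B gene. Points are libraries, bars group means and lines the SD (n = 3). The 2A minus 2D difference is near -1.03 in 0N and -0.54 in 2N, and the 4A copy lies above 5B and 5D in all 6 libraries.

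The rest of the family comprised 13 genes, of which 8 were tested. By edgeR's test 3 rose and 0 fell (4 and 0 at an unadjusted p under 0.05, 3 and 0 by DESeq2), and the median log2 fold change was 1.00 against 0.00 over all tested genes. Among all tested genes 7.57% rose and 7.93% fell. The 3 rises by DESeq2 included TraesCS6A02G226800 and not TraesCS3A02G350800, the reverse of edgeR. Genes on 6A, 6B and 6D matched AMT1;2, AMT1;3 and AMT1;2, importers of the same branch as AMT1;1. TraesCS6B02G254800 on 6B stood at 9.02, 9.52 and 6.67 TPM in 0N and at 29.9, 16.3 and 22.3 TPM in 2N. It rose by 1.54 ± 0.26 on the log2 scale (SE, edgeR adjusted p = 0.0114), with 0.0549 without 0N replicate 1 and 0.0501 without 2N replicate 3 (range over the alternatives 4.4e-13 to 0.0549). 2N replicate 2 was the lowest 2N library for all 3 genes, whereas for the group 2 genes it lay within or above the others.

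TraesCS6A02G226800, at 9.99, 12.2 and 5.90 TPM in 0N and 33.3, 18.1 and 29.8 TPM in 2N, had a log2 fold change of 1.63 ± 0.38 (SE) that missed the threshold (edgeR adjusted p = 0.0516, range over the alternatives 0.0011 to 0.165). Its groups did not overlap, and it passed by DESeq2 (adjusted p = 0.00115), with the stricter filter (0.0464), by limma on TPM (0.00797 and 0.00695) and without 0N replicate 3 or 2N replicate 2 (0.0462 and 0.0232). TraesCS6D02G208200 stood at 8.26 ± 2.03 TPM in 0N and 11.2 ± 4.05 TPM in 2N, and its groups overlapped (log2 fold change 0.54 ± 0.36 SE, edgeR adjusted p = 0.428, 0.0268 without 2N replicate 2).

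AMT2;1-like transcripts, at 42.8 ± 6.57 TPM summed, had the next highest mean after AMT1;1 in 0N, and neither gene passed the test. TraesCS1A02G295300 stood at 21.4 ± 2.12 TPM in 0N and 21.8 ± 2.78 TPM in 2N (SD, n = 3, edgeR adjusted p = 0.488), and TraesCS1D02G296600 at 21.4 ± 4.50 and 17.1 ± 1.15 TPM (edgeR adjusted p = 0.289). The 3 AMT2;3-like genes were at most 1.34 TPM in any library. TraesCS3B02G383400 rose from 0.21 ± 0.02 to 0.70 ± 0.27 TPM (log2 fold change 1.79 ± 0.42 SE, edgeR adjusted p = 0.00908), with 0.0618 without 2N replicate 3 (range 0.0022 to 0.0618). TraesCS3A02G350800 rose from 0.32 ± 0.25 to 0.82 ± 0.07 TPM (1.43 ± 0.44 SE, edgeR adjusted p = 0.0415). It lost its call by DESeq2 (0.0654), by limma with the smaller pseudocount (0.0722), with the replicate block (0.067) and without 0N replicate 1 or 3 or any 2N replicate (0.059 to 0.134, range over all alternatives 0.0094 to 0.134). TraesCS3D02G344800 did not pass (edgeR adjusted p = 0.588, 0.0285 without 0N replicate 2).

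The 5 untested genes lay at the floor. TraesCS3A02G381600, similar to AMT3;1, had 2 to 8 counts per library. TraesCS3D02G374800 and TraesCS5D02G398200, also AMT3;1-like, each had about 1 count in 1 library. TraesCS3B02G414300 and the AMT3;3-like TraesCS5B02G393200 had 0 counts in all 6. Among AMT3 types, every library had counts from the 4A, 5B and 5D genes and from TraesCS3A02G381600.

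By mean TPM in 0N, the 2D, 2B and 2A copies of AMT1;1 ranked 1, 2 and 3 of the 20 genes, with 2A and both AMT2;1 genes overlapping. The 4A copy of AMT3;2 ranked 6 and did not overlap the genes at ranks 5 and 7. Its highest library (18.4 TPM) exceeded the lowest of TraesCS1D02G296600 at rank 4 (17.7 TPM). The 5B and 5D copies ranked 7 and 9, and did not differ from the AMT1;2 and AMT1;3 genes at 8, 10 and 11 beyond their spread. In 2N the group 2 copies held ranks 1, 2 and 3, and 2D and 2B now overlapped. The AMT3;2 copies ranked 9, 10 and 11, below all the AMT1 and AMT2;1 genes except the near-silent 2B gene, with 4A overlapping the 6D gene.

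Genes that act next to ammonium transporters were taken from lists set by name. Glutamine synthetase incorporates ammonium, and its list also held glutamate synthase. The list had 13 rises and 0 falls among 22 tested genes (14 and 1 at an unadjusted p under 0.05, 12 and 1 by DESeq2). Its median log2 fold change was 1.44. Of all tested genes, 7.57% rose and 7.93% fell. The expression also matched 5 folylpolyglutamate synthases, which belong to folate metabolism. Without them 13 of 17 rose. The plastidial glutamine synthetase gene TraesCS2D02G500600 rose by 3.54 ± 0.11 (log2, SE, edgeR adjusted p = 3.5e-11), from 30.3 ± 3.80 to 351 ± 5.87 CPM, and TraesCS2A02G500400 by 3.41 ± 0.10 (edgeR adjusted p = 2.7e-11). Summed CPM of the list was 2466 ± 128 in 0N and 6019 ± 347 in 2N (SD, n = 3). Glutamate dehydrogenase enzymes can release or bind ammonium. Of their 14 tested genes 1 rose and 0 fell, near the shares over all tested genes (2 and 0 at an unadjusted p under 0.05, 1 and 0 by DESeq2). That gene, TraesCS5D02G442000, had a log2 fold change of 0.36 ± 0.10 (SE, edgeR adjusted p = 0.02) and lost its call with library totals (0.0764), on TPM by limma (0.114 and 0.112), with the replicate block (0.0574) and on leaving out 0N replicate 1, 0N replicate 2 or 2N replicate 1 (0.0887, 0.0538 and 0.0953).

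CIPK23 is a protein kinase that in Arabidopsis phosphorylates AMT1 proteins and shuts them. The list of CIPK23 and indeterminate-domain proteins held 22 tested genes, and over all tested genes 7.93% fell and 7.57% rose. In the list 3 fell and 0 rose (5 and 3 at an unadjusted p under 0.05, 3 and 0 by DESeq2). All 3 were CIPK23-like, the 3 tested of 4. TraesCS2D02G252600 averaged 46.0 ± 4.96 CPM without and 17.2 ± 2.51 CPM with nitrate (SD, n = 3), a log2 fold change of -1.42 ± 0.12 (SE, edgeR adjusted p = 1.9e-06). TraesCS2B02G271700 fell by 1.16 ± 0.10 (edgeR adjusted p = 3.4e-06) and TraesCS2A02G251800, named although the rule took only 2 genes a list, fell by 1.08 ± 0.14 (edgeR adjusted p = 0.00012). Of the indeterminate-domain genes, relatives of a rice factor that binds the AMT1;2 gene, 0 of 19 passed (3 upward and 2 downward at an unadjusted p under 0.05, 0 by DESeq2), and they summed to 191 ± 8.89 CPM without and 197 ± 2.89 CPM with nitrate (SD, n = 3).

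TIP2 aquaporins, tonoplast channels of a class that carries ammonia, had 2 rises and 0 falls among 8 genes (4 and 0 at an unadjusted p under 0.05, 2 and 0 by DESeq2). Over all tested genes 7.57% rose and 7.93% fell. TraesCS6B02G275100 rose by 0.35 ± 0.09 and TraesCS7B02G243000 by 0.44 ± 0.13 (log2, SE, edgeR adjusted p = 0.0182 and 0.0332), and both lost their calls with library totals (0.0612 and 0.0668), on TPM (0.0942 to 0.0986) and on leaving out 0N replicate 3, 2N replicate 1 or 2N replicate 3 (0.0606 to 0.135). The first also lost it with the replicate block (0.0535), and the second without 0N replicate 1 or 2N replicate 2 (0.143 and 0.0654). Of 3 genes similar to DUR3, the importer of urea, 1 fell, TraesCS1A02G198300 by 0.84 ± 0.17 (log2, SE, edgeR adjusted p = 0.004), from 7.49 ± 0.64 to 4.20 ± 1.03 CPM.

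**Figure D4:**
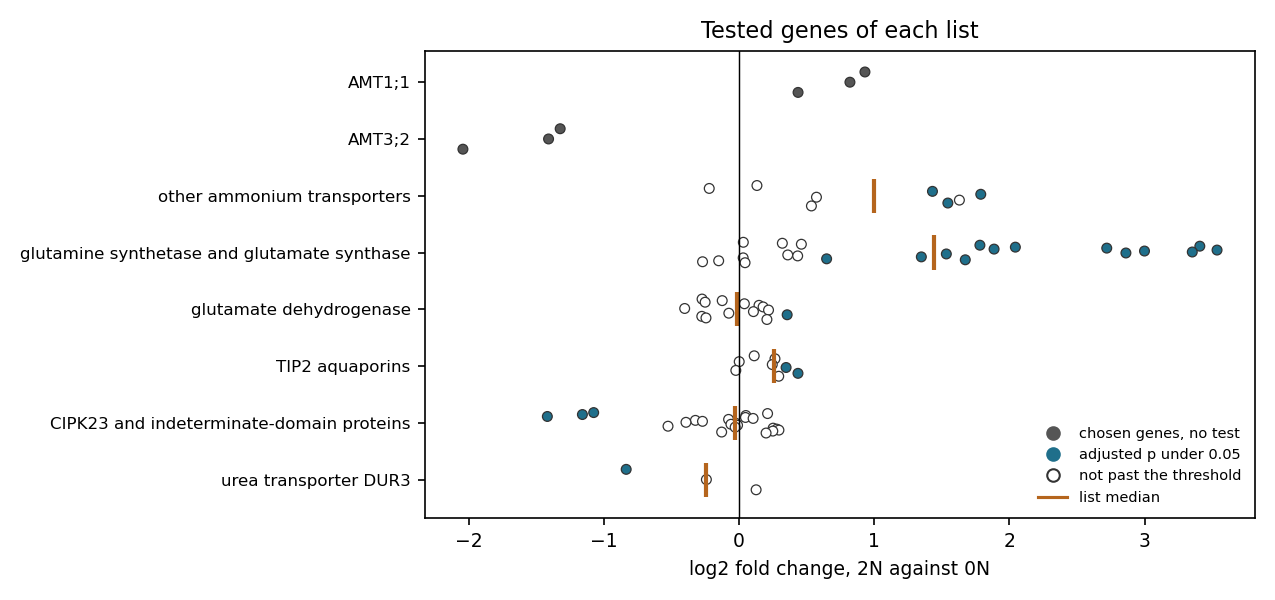
Log2 fold change of 2N against 0N (x axis) for each tested gene of the lists named on the y axis. Filled blue points passed edgeR's test at an adjusted p under 0.05 and open points did not. Grey points are the chosen AMT genes, for which no test result is given, and orange bars are list medians. The top row lies between 0.44 and 0.93 and the row below it between -2.04 and -1.32, and the 3 CIPK23 genes are the blue points on the left of their list.

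The genes whose pattern was most like that of each type were found by the root mean square difference of mean-centred log2 CPM over the 6 libraries, among 25417 named genes with a mean of at least 5 CPM. For AMT1;1 they were TraesCS2A02G533200 (similar to YUCCA3, an auxin synthesis enzyme) at 0.05, TraesCS3D02G334500 (a phosphoglycerate mutase of glycolysis) at 0.05, TraesCS6A02G297900 (a peptidase of family M48) at 0.05, TraesCS6D02G258400 (an AT-hook nuclear protein) at 0.06 and TraesCS6D02G137200 (a protein phosphatase 2C) at 0.06. The phosphoglycerate mutase gene went from 197 ± 16.3 to 325 ± 17.7 CPM (SD, n = 3). The copies themselves lay at 0.12 (2A), 0.06 (2B) and 0.14 (2D) from their own sum.

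For AMT3;2 they were TraesCS5A02G090000 (a calmodulin-binding protein) at 0.11, TraesCS3A02G102000 (a quinone oxidoreductase) at 0.12, TraesCS3B02G233000 (a vacuolar-processing enzyme, a protease) at 0.12, TraesCS2B02G532000 (a lectin receptor-like kinase) at 0.12 and TraesCS1B02G077600 (similar to AZG1, in Arabidopsis a purine transporter) at 0.13. The last of these went from 44.1 ± 2.65 to 14.2 ± 1.59 CPM (SD, n = 3). With 6 libraries in 2 groups such likeness rests mainly on the size of the group difference.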

How the data were processed

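Root poly(A) RNA of 6 libraries was sequenced from random-primed cDNA; no label states that strand was kept. The submitters' processing notes name HISAT and Bowtie2, with no role or version, and genome build, annotation and counter were not given in the sources used here. Expected counts (estimated counts per gene, not normalized) were deposited by the authors, and 45.1% of them are not whole (tolerance 1e-06). TPM values were also deposited by the authors, per the file headers. 12 other per-library columns were not used. Gene names are best UniProt matches, and chromosomes are the codes inside identifiers, since 0 identifiers matched the reference table of 155467 genes. Of the 7 members, 6 had counts that were not whole, so reads may be shared among copies.

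Counts were rounded, filtered with filterByExpr (minimum count 10, minimum total 15; 54313 genes left), scaled by TMM and tested with edgeR 4.0.16 (quasi-likelihood, robust) in R 4.3.3, Benjamini-Hochberg adjusted over these genes, threshold 0.05. Standard errors (SE) are the log2 fold change over the square root of F. Alternatives used limma 3.58.1 on log2(TPM + 0.1) or log2(TPM + 1), DESeq2 1.42.0, other scalings and filters, a replicate block and leaving out each library. The fit was also run on simulated counts with a single dispersion for all genes and changes set only in well-counted genes. That run does not show how changes in noisier or low-count genes are recovered. Replicate labels do not say whether plants were separate, so p-values measure the spread between samples. Members and lists were chosen with earlier results of these data known. Text names all ammonium transporters, the 2 smallest p past the threshold per direction and list, the 5 nearest patterns per type, and the most abundant marker of each list.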

Additional observations from a re-analysis of the deposited data

How the results depend on the processing

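The direction of the 6 tested AMT1;1 and AMT3;2 genes was the same under every alternative run. The log2 fold changes ranged from 0.80 to 0.99 (TraesCS2A02G365000), 0.70 to 0.89 (TraesCS2B02G383600), 0.33 to 0.49 (TraesCS2D02G362900), -1.47 to -1.18 (TraesCS4A02G352900), -1.54 to -1.23 (TraesCS5B02G520200) and -2.18 to -1.70 (TraesCS5D02G519400). Moves beyond the spread between replicates came with library totals (0.84 for TraesCS2A02G365000), limma on log2(TPM + 0.1) (0.83 and 0.72 for the 2A and 2B genes) and limma on log2(TPM + 1) (0.80, 0.70 and, for TraesCS5D02G519400, -1.70). The log2 ratio of summed AMT1;1 was 0.58 in TPM, and, chosen after seeing the data, 0.71 in CPM with TMM and 0.71 with DESeq2 size factors. The order of the 2B and 2D copies of AMT1;1 reversed without length correction (0.43 in CPM), and the 5B and 5D copies of AMT3;2 then passed (0.53). No other order reversed in these settings.

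Genes that rose numbered 4109 and genes that fell 4306. Falls outnumbered rises more widely with library totals (2920 rose, 6208 fell) and by limma on TPM (2445 rose and 5441 fell with pseudocount 0.1, 2489 and 5551 with pseudocount 1). With a library left out 2622 to 4285 rose (2622 without 0N replicate 1, 2639 without 2N replicate 3) and 3082 to 4100 fell. Other ammonium transporters that rose numbered 3, with 0 to 4 when a library was left out (1 without 0N replicate 1, 0 without 2N replicate 3). In the glutamine list 1 fell with library totals, DESeq2, limma on TPM or without 0N replicate 2 (0 to 1). Glutamate dehydrogenase rises were 0 with library totals, limma on TPM or the block and 0 to 1 with a library left out, and falls 0 to 2 (2 without 0N replicate 3). TIP2 rises were 0 with library totals or limma on TPM, 1 with the block and 0 to 3 with a library left out (3 without 0N replicate 2 or 2N replicate 2, 1 without 0N replicate 1, 0 without each of the other libraries). CIPK23 and indeterminate-domain falls were 5 with library totals, and DUR3 falls 1 to 2 (2 without 2N replicate 1). The cause was not tested.

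Replicate numbers did not pair the libraries: deviations of same-numbered libraries correlated at -0.005, -0.11 and 0.03. With the replicate block 3454 genes rose and 3845 fell.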
